A study of Mus musculus with 13 samples.

Results

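Wnt ligands, their receptors and their secreted modulators were followed in mouse lung 21 days after bleomycin. The group was defined by gene symbol: Wnt, Frizzled (Fzd), Lrp5 and Lrp6, R-spondin (Rspo), Lgr4 to Lgr6, Sfrp, Dkk and Wif1 genes, together with Axin2, Lef1 and the Tcf7 genes, each with a summed count above 10 over 13 libraries. Of 54513 rows of the count table, 54 matched by symbol and 51 met the count rule. Just outside were Wnt1 with a summed count of 8 and Dkk4 and Wnt8a with 0, and just inside were Wnt8b with 14 and Wnt3 with 17. Of the 51 members, 43 passed the filter on low counts and were tested among 20468 genes. The rule itself uses only symbols and summed counts.

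Total RNA came from 10 µm slices of paraffin blocks of lung, from C57Bl/6 males aged 7 to 8 weeks. Bleomycin, a DNA-damaging drug that scars the lung, was given to 8 of the samples and saline to 5. Replicates 5 to 8 of bleomycin and all of saline carry the label batch 1, and bleomycin replicates 1 to 4 carry batch 2, whose meaning the labels do not state. Within batch 1, saline and bleomycin libraries are numbered in separate series, and any handling that followed this numbering cannot be told apart from treatment. The labels give neither dose nor route and name no engineered allele, and 1 strain, 1 sex and 1 time point limit the model. Nothing says that each library is a different animal, so a p-value covers only the spread among these libraries, which may be technical.

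Wnt proteins are lipid-modified signals that bind Frizzled receptors, and with the co-receptors Lrp5 or Lrp6 they stop the breakdown of β-catenin, which then joins TCF/LEF factors on target genes such as Axin2. R-spondins act through Lgr receptors to keep Frizzled proteins at the surface, whereas Sfrp, Wif and most Dkk proteins bind ligands or co-receptors and dampen the signal. In the lung, Wnt signals help maintain alveolar type 2 cells as a source of new epithelium and act on fibroblasts during scarring, and ligands such as Wnt5a also act without β-catenin.

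Promoter windows are shown for 4 members on which the results below turn: Fzd1 and Fzd7, receptors that moved in opposite directions, Axin2, the usual transcript for reading pathway activity, and Wnt11, the only member called in batch 1 whose window held the motif searched. RefSeq windows on GRCm38.p6 were matched by symbol for 34 of 51 members (42 windows), and the 250 bases before the start of transcription are printed 5′ to 3′ on the strand of the gene. They are chr5:4758217-4758466 (minus strand), chr1:59481897-59482146 (plus), chr11:108920099-108920348 (plus) and chr7:98834862-98835111 (plus). Capitals mark a match to the letters CTTTGAA or CTTTGAT, a core that TCF/LEF factors are known to bind, on either strand.
Fzd1 promoter: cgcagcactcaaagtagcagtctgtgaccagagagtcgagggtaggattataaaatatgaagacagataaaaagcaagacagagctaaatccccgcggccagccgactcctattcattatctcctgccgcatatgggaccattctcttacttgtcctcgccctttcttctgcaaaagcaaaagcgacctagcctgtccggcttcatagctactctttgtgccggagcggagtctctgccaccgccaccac
Fzd7 promoter: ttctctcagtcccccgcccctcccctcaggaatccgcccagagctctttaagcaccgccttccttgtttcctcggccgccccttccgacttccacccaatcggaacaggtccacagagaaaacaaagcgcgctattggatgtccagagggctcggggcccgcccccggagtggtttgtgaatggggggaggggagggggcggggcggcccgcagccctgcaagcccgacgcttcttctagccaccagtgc
Axin2 promoter: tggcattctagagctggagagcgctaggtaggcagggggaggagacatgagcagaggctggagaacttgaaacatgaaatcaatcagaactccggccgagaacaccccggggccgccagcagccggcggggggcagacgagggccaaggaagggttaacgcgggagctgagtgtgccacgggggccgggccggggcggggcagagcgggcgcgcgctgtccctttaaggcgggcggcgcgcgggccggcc
Wnt11 promoter: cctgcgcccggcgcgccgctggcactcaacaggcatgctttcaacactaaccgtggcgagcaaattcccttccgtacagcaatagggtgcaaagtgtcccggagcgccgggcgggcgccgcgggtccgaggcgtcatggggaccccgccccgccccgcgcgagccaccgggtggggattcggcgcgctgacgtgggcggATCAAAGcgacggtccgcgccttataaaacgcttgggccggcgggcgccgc
The Wnt11 match begins 51 bases before the start. The window of another Wnt11 start had no match. In windows of 300 bases, which run on to 50 bases past the start, 2842 of 32851 mouse promoters (8.65%) held a match on either strand. Among the windows of members, 3 of 42 did (7.14%), those of Wnt11, Dkk1 and Wnt5b. Among the 12 windows of 11 members called in batch 1, 1 did (8.33%). A match is a description of letters in this window and not a bound site, and no match says nothing of binding elsewhere.

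Total counts were 21727502 to 28885129 in batch 1 bleomycin libraries, 9527580 to 26043735 in saline and 6337147 to 12982422 in batch 2, so that 1 count was worth 0.0347 to 0.166 CPM (the count scaled to the normalized library total). Members summed to 1197.1 to 1449.9 CPM per library. Bleomycin replicate 8 has conflicting labels: its title calls it a control, whereas its treatment label and library name say bleomycin, and results are therefore also given without it. All 8 markers in each list of alveolar type 1, alveolar type 2 and airway cells were detected, as the lung label would have it. Between groups those cell type lists moved too. The 8 activated fibroblast markers all rose in batch 1, and their summed level was 1387 to 1634 CPM in saline, 4562 to 17020 in batch 1 bleomycin and 6529 to 17231 in batch 2. The sum of 17020 CPM was in bleomycin replicate 8, the library whose title says control. Airway markers fell in 7 of 8 (7235 to 13245, 2483 to 3682 and 2544 to 6829 CPM), alveolar fibroblast markers in 7 of 8 (5299 to 6219, 3784 to 5681 and 3998 to 5275 CPM). Alveolar type 2 markers fell in 5 of 8 (6651 to 8605, 2789 to 5511 and 3589 to 8833 CPM), as did capillary markers, of which 1 rose (4168 to 5290, 2599 to 3120 and 2766 to 3182 CPM). Alveolar type 1 markers also fell in 5 of 8 (3237 to 4025, 1404 to 2622 and 2060 to 2844 CPM), and smooth muscle markers in 4 of 8. B cell markers rose in 7 of 8 (23.3 to 50.7, 69.0 to 139 and 59.5 to 168 CPM). Of 8 mesothelium markers 1 rose and 3 fell. Heart muscle markers, of which 0 of 8 were called, summed to 743 to 1176 CPM in saline, 700 to 4825 in batch 1 and 124 to 3175 in batch 2. The highest of these sums was in bleomycin replicate 5. A list of surface epithelium markers of oesophagus or skin and of thymus, with Krt4 and Krt13 as most of the mean sum in each group, ranged from 4.87 to 2844 CPM in saline, 5.40 to 704 in batch 1 and 9.30 to 1584 in batch 2. The thymus markers Foxn1 and Psmb11 were near 0 (saline means of 0.27 and 0.11 CPM), and no marker of these lists was at 0 in all 13 libraries. Their part in the results below was not tested, and in bulk tissue fewer cells of a type and less RNA per cell cannot be told apart.

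In batch 1, 15 of 43 tested members (34.9%) changed between bleomycin and saline, where 30.9% of all tested genes did. Here 5 members were higher (17.5% of all genes were) and 10 lower (13.4% of all genes). The share called among members was therefore near that of all tested genes. The median log2 change was -0.22 over the 43 members and 0.03 over all genes. A change means a Benjamini-Hochberg adjusted p under 0.05 over all 20468 genes in edgeR's quasi-likelihood test, and every adjusted p below comes from it. At an unadjusted p under 0.05, 23 of 43 members passed, beside 8490 of 20468 genes. By role, of 14 ligands 1 was higher and 5 lower, of 9 Frizzled receptors 1 higher and 3 lower, and of 7 secreted antagonists 3 higher and 0 lower. Among R-spondins 1 of 2 was lower, and Axin2 was lower. None of the 2 co-receptors, 3 Lgr receptors or 4 TCF/LEF factors was called. Overlap between libraries is described below for single members, and the share of all genes without overlap was not counted. Without bleomycin replicate 8, 5 members were higher and 11 lower, where 5503 of 20694 genes were called (52.0% of these calls higher).

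**Figure D1:**
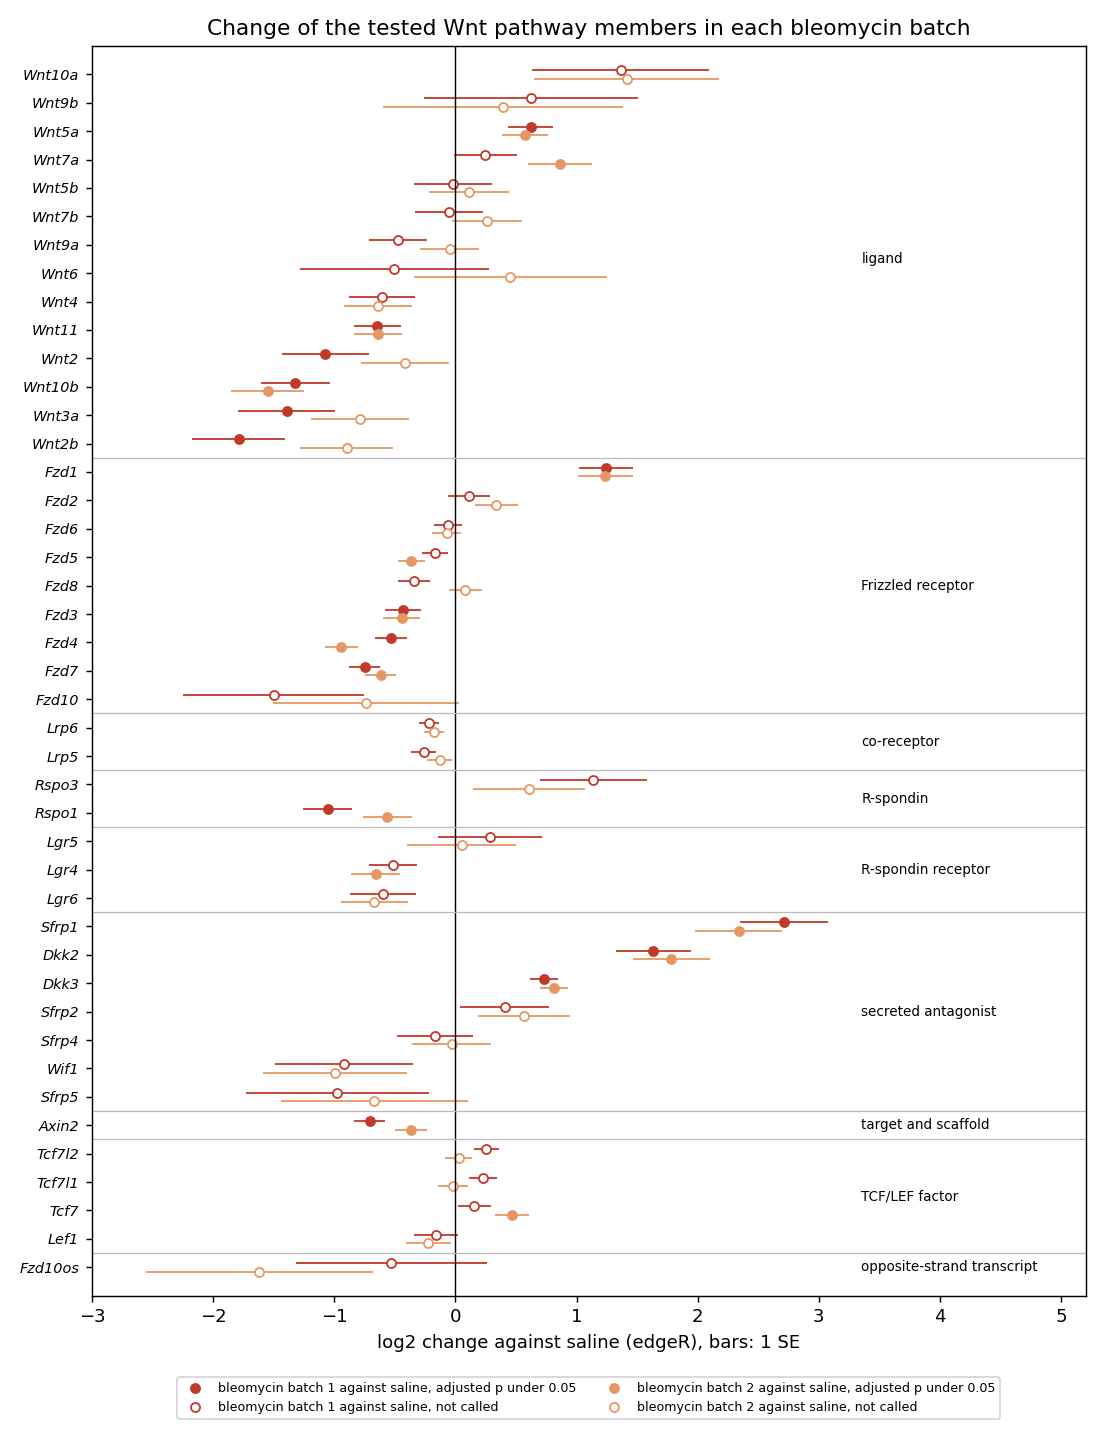
Log2 change against saline (horizontal axis, bars 1 SE) for the 43 tested members, grouped by role, in batch 1 (red) and batch 2 (orange); filled points have an adjusted p under 0.05. Sfrp1 lies farthest to the right in both batches (2.71 and 2.34), and Wnt2b has the most negative change of the batch 1 calls (-1.79).

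Wnt5a was the only ligand called higher in batch 1. It signals largely without β-catenin, through receptors such as Ror2. Its saline libraries held 32.9, 31.3, 31.1, 24.9 and 29.4 CPM, batch 1 bleomycin libraries 31.2, 69.7, 49.5 and 33.8, and batch 2 libraries 43.2, 42.4, 45.6 and 46.9 (replicates in order of number here and below). Replicate 5 lay within the saline range and replicate 8 just above it, while all of batch 2 lay above saline. The log2 change was 0.62 in batch 1 (SE 0.18, adjusted p = 0.0184) and 0.57 in batch 2 (SE 0.19, adjusted p = 0.0314). The batch 1 call ended without bleomycin replicate 6 (0.35, adjusted p = 0.084) or saline replicate 4 (0.52, 0.0642), and in batch 1 fitted alone (0.59, 0.0577). The batch 2 call was lost under 11 of 20 alternative analyses, with adjusted p up to 0.0972 (without saline replicate 4). Per kilobase of exon, Wnt5a made up 12.8% ± 2.19 (SD, n = 5) of all Wnt ligand RNA in saline, 24.7% ± 6.98 (n = 4) in batch 1 and 20.8% ± 1.13 (n = 4) in batch 2. Summed over the 17 ligands, the level was 30.3 ± 3.08, 23.5 ± 3.40 and 27.5 ± 1.36 CPM per kilobase in the same order.

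The 5 ligands that fell in batch 1 were Wnt2b, Wnt3a, Wnt10b, Wnt2 and Wnt11. Wnt2b and Wnt2 are closely related ligands that act through β-catenin and are needed together for the lung to form. Wnt2b stood at 5.03, 6.26, 4.16, 5.66 and 2.06 CPM in saline, 2.06, 0.76, 1.5 and 1.02 in batch 1 and 3.32, 2.65, 1.69 and 2.34 in batch 2. Saline replicate 5 equalled bleomycin replicate 5, and the other saline libraries were above all bleomycin libraries. Its log2 change was -1.79 in batch 1 (SE 0.38, adjusted p = 0.00223) and -0.90 in batch 2 (SE 0.38, adjusted p = 0.0899, not called). Wnt2 stood at 5.8, 6.26, 5.18, 2.26 and 7.21 CPM in saline, 2.97, 1.81, 3.15 and 2.19 in batch 1 and 2.66, 2.65, 6.93 and 3.51 in batch 2. Here saline replicate 4 lay among the bleomycin libraries and batch 2 replicate 3 among the saline libraries. Its log2 change was -1.07 in batch 1 (SE 0.36, adjusted p = 0.0325) and -0.42 in batch 2 (SE 0.36, adjusted p = 0.426). The Wnt2 call in batch 1 ended without bleomycin replicate 6 (-0.94, adjusted p = 0.0949) or 8 (-1.04, 0.0694), without saline replicate 1 (-1.05, 0.0611), 2 (-1.05, 0.0524), 3 (-1.09, 0.0503) or 5 (-0.94, 0.0762), and with no batch term (-0.73, 0.0895).

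Wnt10b and Wnt3a are strong activators of β-catenin signalling in other tissues. Wnt10b held 9.85, 6.73, 9.78, 4.78 and 10.6 CPM in saline, 4.41, 2.85, 3.42 and 2.68 in batch 1 and 2.99, 2.65, 3.89 and 1.76 in batch 2. All 8 bleomycin libraries were below all saline libraries. On the log2 scale it changed by -1.32 (SE 0.29, adjusted p = 0.00244) in batch 1 and -1.55 (SE 0.30, adjusted p = 0.00127) in batch 2. Wnt3a held 12.2, 9.97, 8.54, 9.87 and 11.4 CPM in saline, 5.85, 2.99, 4.57 and 2.44 in batch 1 and 1.00, 6.53, 7.18 and 9.08 in batch 2. Batch 1 lay wholly below saline, whereas batch 2 spread from the lowest library of the series up into the saline range. Its change in log2 units was -1.39 in batch 1 (SE 0.40, adjusted p = 0.0161, and 0.0539 without bleomycin replicate 6) and -0.79 in batch 2 (SE 0.40, adjusted p = 0.16).

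Wnt11, a ligand of the branch that directs cell movement and polarity, held 11.4, 14, 10.0, 9.80 and 12.8 CPM in saline, 6.51, 5.45, 7.68 and 9.95 in batch 1 and 6.31, 7.86, 7.78 and 7.76 in batch 2. Bleomycin replicate 8 reached the low end of saline and the other 7 bleomycin libraries lay below it. The log2 change was -0.65 in batch 1 (SE 0.19, adjusted p = 0.0182, and 0.0639 without bleomycin replicate 6) and -0.64 in batch 2 (SE 0.20, adjusted p = 0.0246).

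A further 8 ligands were tested and not called in batch 1. Wnt7a, made by epithelium in development, had 4.64 to 6.56 CPM in saline, 4.20 to 8.53 in batch 1 and 6.59 to 15.9 in batch 2, where it was higher than in saline (log2 change 0.86, SE 0.26, adjusted p = 0.0221) after 0.25 in batch 1 (adjusted p = 0.509). Wnt4 had 11.6 to 31.6 CPM in saline and 7.70 to 16.5 in batch 1 (log2 change -0.61, adjusted p = 0.105), and Wnt7b 5.62 to 17.6 and 9.53 to 12.2 CPM (-0.05, adjusted p = 0.91). The highest saline value of both was in replicate 4, which also held the most RNA of the surface epithelium list (2844 CPM); whether these go together was not tested. Wnt9a had 8.58 to 12.3 CPM in saline and 4.45 to 11.6 in batch 1 (-0.47, adjusted p = 0.147), and it was lower without bleomycin replicate 8 (-0.84, adjusted p = 0.00809). Wnt5b, Wnt6, Wnt9b and Wnt10a stayed at or under 4.71 CPM in all libraries, with log2 changes of -0.02, -0.50, 0.62 and 1.36 and adjusted p from 0.173 to 0.972. Of these, Wnt10a was called higher under 2 of 21 alternatives, limma-voom and the fit without saline replicate 4 (adjusted p down to 0.0158).

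Fzd1 was the Frizzled receptor that rose, in contrast to Fzd3, Fzd4 and Fzd7, which fell. Fzd1 held 43.5, 46.2, 41.0, 29.4 and 41.5 CPM in saline, 64.5, 122, 86.0 and 109 in batch 1 and 144, 82.0, 70.8 and 84.4 in batch 2. No bleomycin library came down to the saline range. On the log2 scale it changed by 1.24 in both batches (SE 0.22, adjusted p = 0.00116 in batch 1; SE 0.23, adjusted p = 0.00139 in batch 2), and 1.14 in batch 1 without bleomycin replicate 8. Fzd7, a receptor linked to stem and progenitor cells, held 61.9, 59.5, 66.3, 60.1 and 56.1 CPM in saline, 44.9, 37.1, 34.6 and 28.0 in batch 1 and 39.7, 32.1, 43.0 and 43.8 in batch 2. Again no library of bleomycin overlapped saline, here all below it. Its log2 change was -0.75 (SE 0.13, adjusted p = 0.00041) and -0.62 (SE 0.13, adjusted p = 0.00215).

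Fzd4, a receptor of vascular endothelium that also serves the ligand norrin, was the most abundant Frizzled in saline per kilobase (21.7 CPM per kilobase). It held 127, 138, 167, 153 and 145 CPM in saline, 127, 105, 90.5 and 80.5 in batch 1 and 60.9, 86.6, 85.2 and 70.9 in batch 2. Bleomycin replicate 5 came within rounding of the lowest saline library and the rest were well below. Its change in log2 units was -0.53 in batch 1 (SE 0.13, adjusted p = 0.00706) and -0.94 in batch 2 (SE 0.14, adjusted p = 0.00013), and the difference between the batches did not pass (-0.41, SE 0.14, adjusted p = 0.173). Tspan12, the tetraspanin partner of Fzd4 in the norrin signal, dropped as well, with 50.2 ± 4.08 CPM in saline and 23.9 ± 5.36 in batch 1 (log2 change -1.07, SE 0.16, adjusted p = 0.000155). Fzd3, a receptor of the polarity branch, held 22.0, 22.5, 28.5, 24.5 and 28.5 CPM in saline, 21.7, 17.6, 20.8 and 14.4 in batch 1 and 15.1, 17.3, 20.1 and 21.5 in batch 2. The groups met closely without overlap. Its log2 change was -0.44 in both batches (adjusted p = 0.0362 and 0.0397), and the batch 1 call ended without bleomycin replicate 6 (adjusted p = 0.0881) or 8 (0.0793) and without saline replicate 3 (0.0794) or 5 (0.0824).

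Over 10 Frizzled genes the sum was 68.1 ± 2.89 CPM per kilobase in saline, 66.7 ± 6.23 in batch 1 and 64.3 ± 5.22 in batch 2. Fzd1 accounted for 14.1% ± 2.28 of it in saline (10.5% to 16.3%), 34.0% ± 8.06 in batch 1 (23.1% to 41.4%) and 34.8% ± 8.75 in batch 2 (27.8% to 47.6%). Fzd4 went from 31.9% ± 2.47 to 22.5% ± 4.11 and 17.8% ± 3.95, and Fzd7 from 19.7% ± 0.70 to 12.0% ± 2.19 and 13.7% ± 2.17. These shares rest on the called changes above and were not tested separately.

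**Figure D2:**
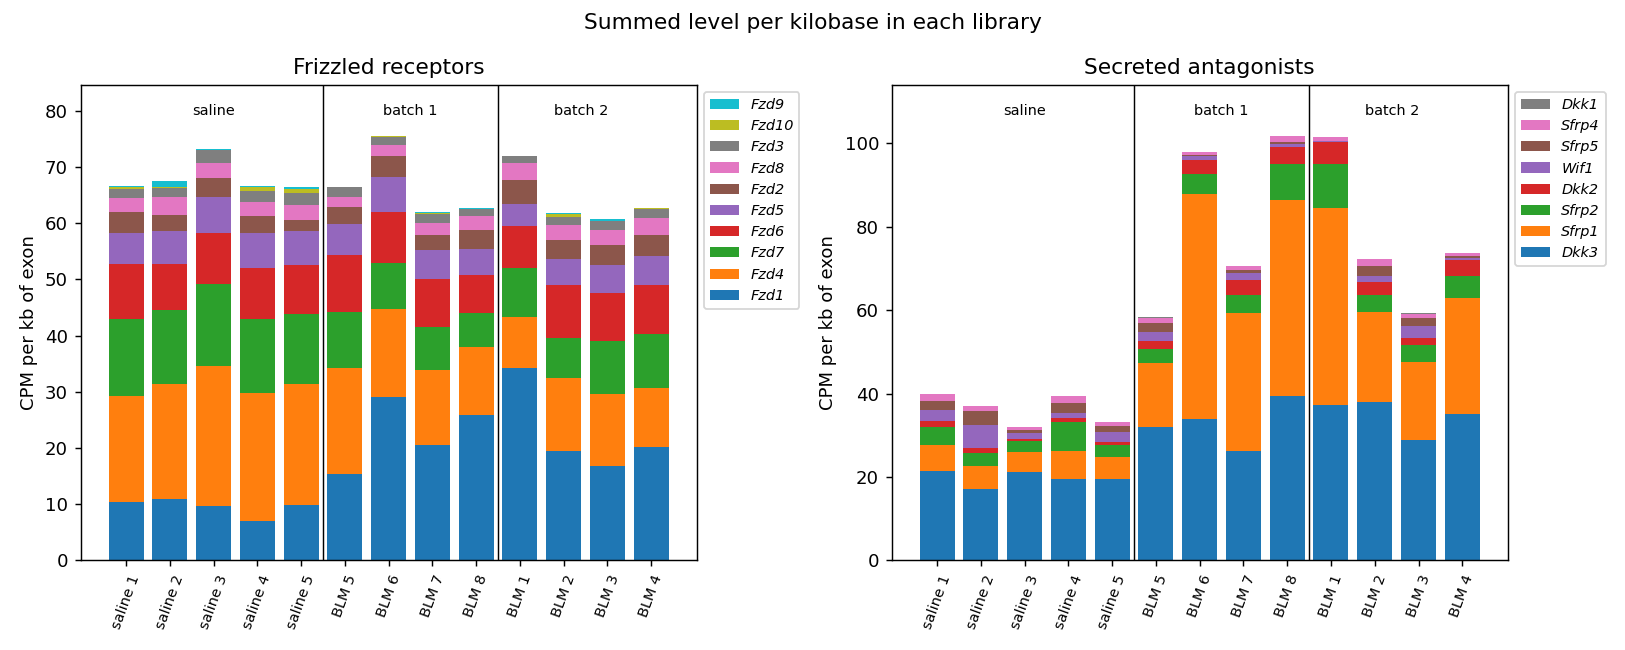
Level per kilobase of exon (CPM per kb, vertical axis) of the 10 Frizzled genes (left) and the 8 secreted antagonists (right), stacked for each of the 13 libraries. The Frizzled stacks are of similar height (group means 68.1, 66.7 and 64.3) while the Fzd1 part (blue, at the base) is larger in bleomycin, and the antagonist stacks are taller in all 8 bleomycin libraries, where both Sfrp1 (orange) and Dkk3 exceed every saline library.

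Of the other Frizzled receptors, Fzd5 and Fzd6 were the most abundant per kilobase after Fzd1, Fzd4 and Fzd7. Fzd5 had 38.4 to 44.1 CPM in saline, 31.5 to 42.2 in batch 1 and 26.9 to 35.7 in batch 2, and was lower in batch 2 (log2 change -0.36, SE 0.11, adjusted p = 0.0225) after -0.17 in batch 1 (adjusted p = 0.266). Fzd6 had 39.5 to 47.1 CPM in saline and 32.2 to 48.7 in batch 1 (-0.06, adjusted p = 0.719). Fzd8 had 14.9 to 18.8 CPM in saline, 11 to 15.2 in batch 1 (-0.34, adjusted p = 0.0634, and -0.47, 0.018 without bleomycin replicate 8) and 15.9 to 18.6 in batch 2. Fzd2 had 7.5 to 13.3 CPM in saline and 9.68 to 13.8 in batch 1 (0.11, adjusted p = 0.653). Fzd10 stayed at or under 2.51 CPM (-1.5, SE 0.75, adjusted p = 0.141). Its 3 libraries above 1 CPM, saline replicates 4 and 5 and bleomycin replicate 2, held 2844, 2419 and 1584 CPM of the surface epithelium list, the 3 highest sums in the series. Whether Fzd10 and this list go together was not tested.

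The co-receptors Lrp5 and Lrp6, which pair with Frizzled to pass the β-catenin signal, did not pass in batch 1. Lrp6 held 258, 244, 289, 259.8 and 277 CPM in saline, 250.3, 235, 221 and 207 in batch 1 and 225, 240.3, 243 and 233 in batch 2 (log2 change -0.22, SE 0.08, adjusted p = 0.0512 in batch 1). Lrp5 held 128, 104, 147, 136 and 133 CPM in saline, 107, 104, 103 and 118 in batch 1 and 104, 119, 132 and 118 in batch 2 (-0.26, SE 0.10, adjusted p = 0.0573). Both sat near the threshold: Lrp6 was called lower under 10 of 21 alternative analyses and Lrp5 under 9, among them for Lrp5 the fit without bleomycin replicate 8 (-0.34, adjusted p = 0.027).

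Rspo1, an R-spondin that potentiates Wnt signals, fell in batch 1 from 12.1, 11.4, 11.6, 9.43 and 11.2 CPM in saline to 5.27, 4.72, 4.01 and 7.48, with 9.47, 7.75, 6.34 and 6.74 in batch 2. All batch 1 libraries lay below saline, and batch 2 replicate 1 touched its lower end. The log2 change was -1.05 (SE 0.20, adjusted p = 0.00105) in batch 1 and -0.56 (SE 0.20, adjusted p = 0.0491) in batch 2, and -1.28 in batch 1 without bleomycin replicate 8. The batch 2 call of Rspo1 was lost under 10 of 20 alternatives, with adjusted p up to 0.124 (without bleomycin replicate 4). Rspo3, an R-spondin of endothelium and stroma, had 0.75 to 2.12 CPM in saline and 1.32 to 5.04 in batch 1 (log2 change 1.14, SE 0.44, adjusted p = 0.062; 0.75, adjusted p = 0.253 without bleomycin replicate 8). Rspo1 made up 89.5% ± 3.59 of R-spondin RNA per kilobase in saline and 71.8% ± 8.86 in batch 1, and Rspo3 6.78% ± 2.04 and 24.0% ± 8.69. In batch 2 these shares were 83.4% ± 2.78 for Rspo1 and 14.1% ± 4.32 for Rspo3. Of the receptors for R-spondins, Lgr4 had 12.2 to 17.7 CPM in saline, 8.94 to 14.3 in batch 1 (-0.51, adjusted p = 0.0589, and called lower under 9 of 21 alternatives) and 7.78 to 12.8 in batch 2, where it was lower (-0.66, SE 0.20, adjusted p = 0.0235). Lgr6 had 24.2 to 36.5 CPM in saline, 13.6 to 29.3 in batch 1 (-0.60, SE 0.27, adjusted p = 0.115) and 8.64 to 25.3 in batch 2. Lgr5, a stem cell marker of the intestine, stayed at 0.85 to 2.64 CPM (0.29, adjusted p = 0.655).

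The secreted antagonists included the largest change of the group. Sfrp1, a decoy that holds Wnt proteins away from Frizzled, held 28.0, 23.7, 21.6, 29.0 and 22.4 CPM in saline, 67.8, 236, 145 and 206 in batch 1 and 207, 94.6, 82.3 and 122 in batch 2. Every bleomycin library was above every saline library, with replicate 5 the lowest of them. On the log2 scale it changed by 2.71 in batch 1 (SE 0.36, adjusted p = 0.000276; 2.55 without bleomycin replicate 8) and 2.34 in batch 2 (SE 0.36, adjusted p = 0.000807). Dkk2, which binds the co-receptors, held 5.03, 4.52, 2.41, 4.15 and 2.65 CPM in saline, 6.84, 12, 13 and 14.5 in batch 1 and 19.6, 12.2, 6.26 and 13.8 in batch 2. The groups again did not overlap. Its log2 change was 1.63 (SE 0.31, adjusted p = 0.00109) and 1.78 (SE 0.32, adjusted p = 0.000744). Dkk3, a relative whose action on Wnt signals is less clear, held 71.7, 57.5, 70.8, 65.7 and 66.0 CPM in saline, 107, 114, 88.2 and 132 in batch 1 and 125, 127, 96.8 and 118 in batch 2. Its log2 change was 0.73 (SE 0.11, adjusted p = 0.000193) and 0.81 (SE 0.11, adjusted p = 9.74e-05), with no overlap of either batch with saline.

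Sfrp2, Sfrp4, Sfrp5 and Wif1 were tested and not called. Sfrp2 had 5.40 to 14.8 CPM in saline and 7.17 to 18.5 in batch 1 (log2 change 0.41, SE 0.37, adjusted p = 0.438), and Sfrp4 2.77 to 6.90 and 3.06 to 5.77 CPM (-0.17, adjusted p = 0.724). Wif1 had 3.02 to 13.5 CPM in saline and 1.75 to 5.31 in batch 1 (-0.92, SE 0.57, adjusted p = 0.245), and Sfrp5 1.24 to 6.49 and 0.69 to 4.28 CPM (-0.97, SE 0.76, adjusted p = 0.359). For Wif1 and Sfrp5, differences of this size were not detectable with this spread. Summed over all 8 antagonists, the level was 36.3 ± 3.53 CPM per kilobase in saline, 82.2 ± 21.1 in batch 1 and 76.7 ± 17.8 in batch 2. Sfrp1 made up 16.9% ± 0.53 of the Sfrp and Dkk RNA in saline, 44.5% ± 11.9 in batch 1 and 37.2% ± 7.16 in batch 2, and Dkk3 59.2% ± 7.10, 42.2% ± 9.86 and 47.3% ± 7.38. The activated fibroblast markers, whose summed level is given above, were lowest among bleomycin libraries in replicate 5 (4562 CPM), the library with the least Sfrp1; their part in the Sfrp1 result was not tested.

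**Figure D3:**
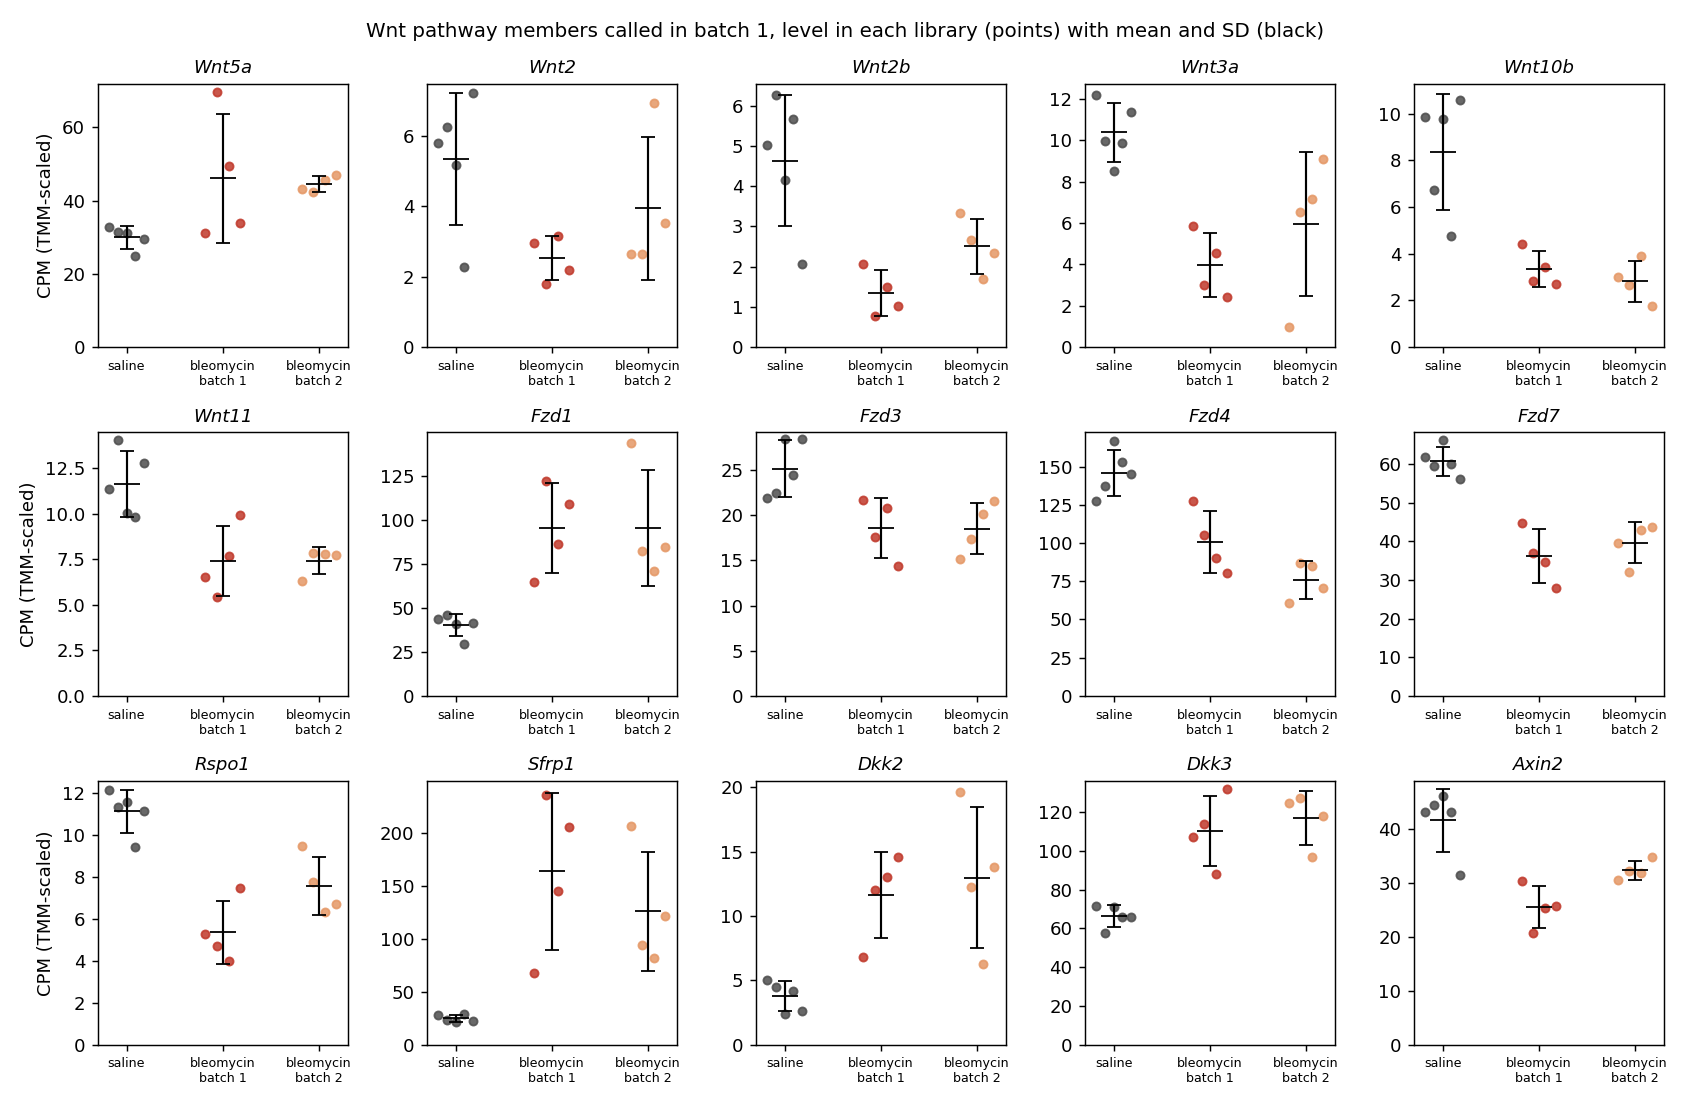
Level (CPM, vertical axes from 0) of the 15 members called in batch 1 in each of 5 saline, 4 batch 1 and 4 batch 2 libraries, with mean and SD in black. Sfrp1, Dkk2, Dkk3 and Fzd1 have all bleomycin libraries above the saline range, and Fzd3, Fzd4, Fzd7 and Wnt10b have all below it. Wnt2, Wnt2b, Wnt5a and Wnt11 show overlap in batch 1.

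Axin2, a β-catenin target and itself a brake on the pathway, fell. It held 43.1, 44.4, 46.0, 43.2 and 31.4 CPM in saline, 30.3, 20.7, 25.3 and 25.8 in batch 1 and 30.6, 32.1, 31.9 and 34.7 in batch 2. Batch 1 lay below all saline libraries, and batch 2 overlapped only with saline replicate 5, which stood apart from the other saline libraries. Its change in log2 units was -0.71 in batch 1 (SE 0.13, adjusted p = 0.00073; -0.74 without bleomycin replicate 8) and -0.37 in batch 2 (SE 0.13, adjusted p = 0.0448). The batch 2 call of Axin2 was lost under 10 of 20 alternatives, with adjusted p up to 0.107 (without bleomycin replicate 1). All 4 batch 2 libraries were above all batch 1 bleomycin libraries, but the difference did not pass (0.34, SE 0.14, adjusted p = 0.245).

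The TCF/LEF factors, which carry β-catenin to target genes, were not called in batch 1. Lef1 held 23.2, 31.4, 16.2, 16.0 and 17.7 CPM in saline, 19.7, 17.6, 17.6 and 19.5 in batch 1 and 14.3, 19.2, 19.0 and 18.6 in batch 2 (log2 change -0.16 in batch 1, SE 0.18, adjusted p = 0.537). Tcf7l2 held 59.9, 51.4, 51.3, 55.6 and 40.7 CPM in saline, 62.3, 63.0, 62.0 and 60.2 in batch 1 and 59.3, 45.7, 52.1 and 54.2 in batch 2 (0.26, SE 0.11, adjusted p = 0.0796). The batch 1 libraries of Tcf7l2 were all above saline, by a narrow margin. Tcf7, also a T cell factor, had 20.7 to 28.8 CPM in saline, 21.0 to 31.9 in batch 1 (0.16, adjusted p = 0.421) and 30.1 to 37.3 in batch 2, where it was higher (0.47, SE 0.14, adjusted p = 0.0189). T cell markers summed to 15.1 to 49.7 CPM in saline, 46.3 to 64.5 in batch 1 and 43.7 to 58.3 in batch 2, 3 of 8 being called higher in batch 1, and their part in the Tcf7 result was not tested. Tcf7l1 had 25.6 to 30.9 CPM in saline and 29.4 to 34.7 in batch 1 (0.23, adjusted p = 0.16).

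The 8 members too low to test were Dkk1, Fzd9, Rspo2, Rspo4, Rspo4os, Wnt3, Wnt8b and Wnt16. The highest level of any of them in a library was 2.20 CPM, that of Fzd9 in saline replicate 2, and each was at 0 in at least 1 library. Fzd10os and Rspo4os are transcripts from the strand opposite Fzd10 and Rspo4. As the sources used here do not give the strand setting of the counting, their reads cannot be told apart from those of their partners. Fzd10os reached 1.70 CPM (log2 change -0.53, SE 0.79, adjusted p = 0.652).

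The batch 2 bleomycin libraries were set beside the same saline libraries. Of 43 tested members 16 were called against saline (28.9% of all genes were), 7 higher (15.7% of all genes) and 9 lower (13.2% of all genes). The median log2 change of the members was -0.07, against -0.01 over all genes. In both comparisons 12 members were called in the same direction, 80.0% of the batch 1 calls and 75.0% of the batch 2 calls; the comparisons share their saline libraries, so this is no independent repeat. Wnt2, Wnt2b and Wnt3a were called in batch 1 alone, and Fzd5, Lgr4, Tcf7 and Wnt7a in batch 2 alone. Under 20 alternatives, the batch 2 call was lost in 5 for Fzd3, 4 for Wnt11, 3 each for Lgr4, Tcf7 and Wnt7a and 2 for Fzd5, besides Wnt5a, Axin2 and Rspo1 above. Batch 2 holds no saline, so batch and treatment cannot be told apart in it. Set directly against batch 1 bleomycin, 0 of 43 members differed in batch 2 by edgeR, DESeq2 or limma-voom, where 1.68% of all genes did by edgeR (0.547% higher, 1.13% lower). At an unadjusted p under 0.05, 7 of 43 members passed in edgeR, beside 2995 of 20468 genes. Without bleomycin replicate 8, Fzd4 was lower and Fzd8 higher in batch 2 than in batch 1, where 1093 of 20694 genes differed.

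Among the batch 1 bleomycin libraries, replicate 5 was the nearest to the saline mean for 11 of the 15 called members, replicates 7 and 8 for 2 each and replicate 6 for 0. These members were called from the same libraries, and no such count was made over all genes. Replicate 5 also had the lowest batch 1 sums of activated fibroblast markers (4562 CPM, others 9403 to 17020) and macrophage markers (452, others 757 to 902). Its smooth muscle sum (882 CPM) was instead the farthest from saline (1525 to 1931). Without replicate 6, 10 members were called, and Fzd3, Wnt2, Wnt3a, Wnt5a and Wnt11 were not. Calls over all genes fell too, from 6319 of 20468 to 5123 of 20608.

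Other genes of the pathway, taken from fixed lists, filled in the neighbours of these members. The counts below stand beside 30.9% of all tested genes called in batch 1 (17.5% higher, 13.4% lower), and no list was tested against other genes. Of 12 tested receptor partners and turnover factors 3 were higher and 4 lower in batch 1 (58.3% called). Ror2, a receptor for Wnt5a, held 4.82, 4.64, 3.50, 3.71 and 6.25 CPM in saline, 6.47, 14.7, 9.88 and 14.1 in batch 1 and 16.8, 11.6, 9.04 and 13.9 in batch 2 (log2 change 1.30, SE 0.26, adjusted p = 0.00129 in batch 1). Both Ror2 and Wnt5a were called higher in batch 1, with replicate 5 nearest to saline. Library by library they differed, as replicate 8, just above saline for Wnt5a, held 14.1 CPM of Ror2. Whether the 2 genes go together was not tested. Reck, which with Adgra2 recognises Wnt7 ligands at blood vessels, stood at 60.8 ± 8.65 CPM in saline and 27.4 ± 3.40 in batch 1 (-1.15, SE 0.12, adjusted p = 5.14e-06). Adgra2 moved the other way, from 48.3 ± 3.78 to 67.2 ± 13.5 CPM (0.48, SE 0.13, adjusted p = 0.0112), and was higher in batch 2 too (0.63, adjusted p = 0.00209). Rnf43, the ubiquitin ligase that removes Frizzled from the surface and is itself a Wnt target, stood at 23.0 ± 3.48 CPM in saline and 11.6 ± 3.88 in batch 1 (-0.98, SE 0.20, adjusted p = 0.00165), with 18.8 ± 3.50 in batch 2 (-0.29, adjusted p = 0.301). Of 6 genes for secretion and inactivation of ligands, 1 was higher, the glypican Gpc4 (0.50, SE 0.13, adjusted p = 0.00618). Wls, the carrier of Wnt proteins, was at 112 ± 4.84 and 127 ± 14.4 CPM and was not called (0.17, adjusted p = 0.176).

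Among 9 other secreted antagonists 3 were higher and 0 lower in batch 1 (33.3% called). Of all genes, 17.5% were higher and 30.9% were called in either direction. In batch 2 against saline 3 were higher and 1 lower. The lower one was Sost, an Lrp5 and Lrp6 antagonist best known from bone, at 10.8 ± 9.59 CPM in saline, 3.99 ± 1.30 in batch 1 (-1.43, adjusted p = 0.141) and 1.87 ± 1.35 in batch 2 (-2.49, adjusted p = 0.0309); it is named after its values were seen. Igfbp4, which can block Frizzled and Lrp6 besides binding insulin-like growth factors, stood at 199.9 ± 23.2 CPM in saline and 467 ± 189.9 in batch 1 (log2 change 1.22, SE 0.26, adjusted p = 0.004). Trabd2b, a protease that inactivates Wnt proteins, stood at 28.6 ± 1.4 CPM in saline and 39.0 ± 4.21 in batch 1 (0.45, SE 0.10, adjusted p = 0.0041). It was not called in batch 2 against saline (0.28, adjusted p = 0.055). Frzb, a close relative of the Sfrp genes, stood at 0.89 ± 0.80 CPM in saline and 3.72 ± 1.68 in batch 1 (2.15, SE 0.69, adjusted p = 0.0292), a call that ended without bleomycin replicate 6 (0.0696), 7 (0.0701) or 8 (0.0582) and without saline replicate 1 (0.0625) or 5 (0.0529), and in batch 1 fitted alone (2.1, 0.0544).

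Of 15 tested transcripts often used as Wnt target genes, 7 were higher and 3 lower in batch 1 (66.7% called, median log2 change 0.42 against 0.03 over all genes). Nkd1, a feedback inhibitor of the pathway, held 121, 159.7, 155, 141 and 134 CPM in saline, 69.9, 55.2, 67.9 and 60.0 in batch 1 and 71.2, 92.4, 101 and 87.9 in batch 2. No bleomycin library overlapped saline, and like Axin2 it was lower (log2 change -1.17, SE 0.11, adjusted p = 3.25e-06). Ccn4, a matricellular protein, held 7.84, 4.41, 5.55, 2.77 and 6.55 CPM in saline, 25.9, 44.9, 33.8 and 42.1 in batch 1 and 39.7, 15.6, 17.2 and 15.2 in batch 2, and was higher (2.74, SE 0.34, adjusted p = 7.33e-05). Myc, a growth regulator with many inputs, stood at 7.5 ± 1.66 CPM in saline and 23.4 ± 9.46 in batch 1 (1.65, SE 0.26, adjusted p = 0.000236) and stood at 11.3 ± 3.36 in batch 2 (0.60, adjusted p = 0.108). Cd44, a hyaluronan receptor of many cell types, stood at 132 ± 11.6 CPM in saline and 252 ± 43.5 in batch 1 (0.93, SE 0.12, adjusted p = 5.42e-05). Its batch 2 level was 240 ± 40.4 CPM (0.86 against saline, adjusted p = 0.000125). In batch 2 against saline 3 of the 15 were higher and 2 lower. Macrophage markers were higher for 8 of 8 in batch 1 (summed to 229 to 237 CPM in saline, 452 to 902 in batch 1 and 557 to 871 in batch 2). The part of macrophage markers in the Myc and Cd44 results was not tested. Nor was that of activated fibroblast markers, whose sum was also higher in both batches.

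**Figure D4:**
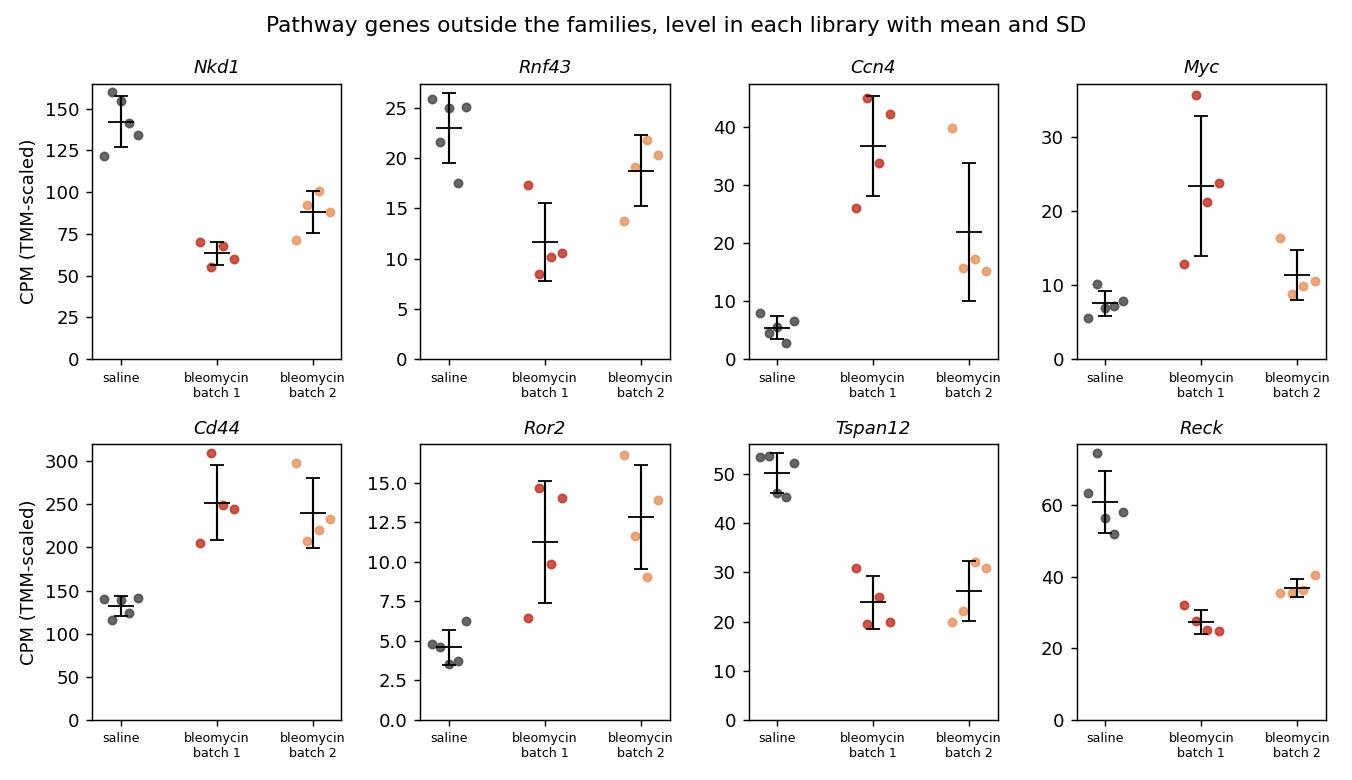
Level (CPM, vertical axes from 0) of 8 pathway genes outside the member families in each library, with mean and SD in black. Nkd1, Rnf43, Tspan12 and Reck have lower means in batch 1 bleomycin than in saline, and Ccn4, Myc, Cd44 and Ror2 higher ones.

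In the cytoplasmic relay and destruction complex, 2 of 26 genes were higher and 2 lower in batch 1, where 30.9% of all genes were called. Besides Nkd1, the kinase Gsk3b, which marks β-catenin for breakdown, was at 267 ± 11.3 and 213 ± 25.8 CPM and fell (log2 change -0.33, SE 0.09, adjusted p = 0.015), and Tnks, which destabilises Axin proteins, rose by 0.31 (SE 0.08, adjusted p = 0.00824, and 0.0523 without saline replicate 4). Tnks was not called in batch 2 against saline (0.18, adjusted p = 0.121). In batch 1 Csnk1d was at 0.23 (SE 0.08, adjusted p = 0.0345), a call lost under 13 of 21 alternatives. The β-catenin gene Ctnnb1 itself was at 397 ± 21.7 and 424 ± 36.0 CPM (0.09, SE 0.08, adjusted p = 0.419). Of 19 nuclear co-factors 4 were higher and 3 lower (36.8% called), among them the co-repressor Tle3 (0.62, SE 0.10, adjusted p = 0.000183), the chromatin remodeller Smarca4 (0.43, SE 0.10, adjusted p = 0.00468), Tle5 (-0.40, SE 0.11, adjusted p = 0.0119) and the β-catenin co-activator Pygo1 (-0.49, SE 0.15, adjusted p = 0.0175).

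In the planar polarity branch, which Wnt5a and Wnt11 can feed, 5 of 18 genes were lower and 0 higher in batch 1 (27.8% called). Of all genes, 13.4% were lower and 30.9% were called in either direction. Prickle1, a core polarity protein, stood at 83.3 ± 10.7 CPM in saline and 36.9 ± 5.98 in batch 1 (log2 change -1.18, SE 0.15, adjusted p = 3.04e-05) and Celsr2, an adhesion receptor of the core complex, at 51.2 ± 8.34 and 30.5 ± 2.16 CPM (-0.75, SE 0.12, adjusted p = 0.000281). Intu and Fuz, which also help build cilia, changed by -0.85 (SE 0.14, adjusted p = 0.000293) and -0.47 (SE 0.15, adjusted p = 0.0232, and 0.0644 without bleomycin replicate 7). Neither was called in batch 2 against saline (Intu -0.29, adjusted p = 0.133, and Fuz -0.09, adjusted p = 0.684). With no batch term Fuz was at -0.28 (adjusted p = 0.146). The airway markers, which include ciliary genes, were lower in the same libraries, as given above, and their part in this list was not tested. In batch 2 against saline 1 gene of this branch was higher and 2 lower.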

How the data were processed

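Per the submitters' processing notes, cutadapt 4.4, STAR 2.7.10b, featureCounts 2.0.3 and DESeq2 1.42.1 were used on genome build mm39. The sources used here do not give the role of each tool, the strand setting, any use of molecular identifiers or the annotation. The authors deposited whole-number counts per gene symbol, which were used as they are; their normalized table was not used. Of counts from 1 to 10, 78.4% to 86.1% per library were even, so a count may not be an independent molecule.

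Genes kept by filterByExpr over 3 groups (20468) were scaled by TMM and tested in edgeR 4.0.16 (R 4.3.3) with robust quasi-likelihood fits, batch and treatment as additive terms, and Benjamini-Hochberg adjustment. The biological coefficient of variation was 0.306. Saline is in batch 1 only, so the treatment term compares 4 bleomycin with 5 saline libraries. The fit was also run on simulated counts with few changed genes, as a check of the code. That run does not measure its error rate on these data. Of 22 pairs of libraries within groups, none agreed within sampling noise (chi-square over its degrees of freedom 10.1 to 267). Exon lengths came from GENCODE M21 by symbol for 50 of 51 members, 49 of them protein-coding. That build differs, and its coordinates were not used; promoters are RefSeq windows on GRCm38.p6.

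Every matching row is a member. Those called in batch 1, with Lef1, Lrp5, Lrp6 and Tcf7l2, have a value for each library, and up to 4 called genes by lowest p are named per pathway list; Wls, Ctnnb1, Adgra2 and Sost were added after their values were seen. Members, lists and rule were chosen with earlier results of these data known. Alternatives were RLE scaling, DESeq2 1.42.0, limma-voom (limma 3.58.1), 2 other filters, protein-coding genes, batch 1 fitted alone, no batch term, a replicate block and each library left out.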

Additional observations from a re-analysis of the deposited data

Results flagged for a closer look

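Of 129 groups of 4 or 5 libraries checked (43 tested members in 3 groups), 6 held a library that stood apart from the rest of its group by Dixon's criterion at the 95% level, about as many as the 1 in 20 that chance gives. Axin2 was at 31.4 CPM in saline replicate 5, where the other saline libraries held 43.1 to 46.0. Wnt10a was at 2.20 CPM in saline replicate 4, with 0 to 0.60 in the others, and Wnt9b at 0.70 CPM in saline replicate 2, with 0.25 to 0.34. In batch 2 bleomycin, Fzd10 was at 2.04 CPM in replicate 2 (others 0.17 to 0.33), Lef1 at 14.3 CPM in replicate 1 (others 18.6 to 19.2) and Wnt11 at 6.31 CPM in replicate 1 (others 7.76 to 7.86).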

How the results depend on the processing

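All 15 members called in batch 1 kept their direction under all 21 alternatives, and 10 of them stayed past the threshold in each: Axin2, Dkk2, Dkk3, Fzd1, Fzd4, Fzd7, Rspo1, Sfrp1, Wnt10b and Wnt2b. Of the 28 members not called, 10 were called under at least 1 alternative. Members called lower in batch 1 numbered 10, and 16 by DESeq2. With a library left out they ranged from 6 (without bleomycin replicate 6) to 13. Over all genes, calls in either direction numbered 6319 of 20468, and 6945 by DESeq2. Without bleomycin replicate 6 there were 5123 of 20608. Members called lower in batch 2 against saline numbered 9, and 4 (without bleomycin replicate 1) to 10 with a library left out. Over all genes, 5911 of 20468 were called in either direction, and 4711 of 21864 without bleomycin replicate 1. Of the 16 batch 2 calls of members, 7 held under all 20 alternatives. Genes that differed between the bleomycin batches numbered 343 (112 higher, 231 lower), against 737 by DESeq2, 106 by limma-voom and 79 among protein-coding genes, and 148 (without bleomycin replicate 3) to 1093 (without bleomycin replicate 8) with a library left out; members among them ranged from 0 to 1 in each direction. The cause of these shifts was not tested. The replicate block, which pairs bleomycin and saline replicates 1 to 4 by number and thus uses only batch 2 bleomycin, gave 4641 genes and 14 members against saline in place of 5911 and 16. Deviations of these same-numbered libraries from their group means correlated at -0.35 to -0.10, which gave no sign of pairing by number. A pairing that leaves no trace in expression could not be seen this way. Depth limits the low members most: 1 count is worth up to 0.166 CPM, and 8 members could not be tested.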
